A study of Mus musculus with 12 samples.

Results

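The Zfp zinc finger genes are the mouse genes whose symbol is Zfp followed by a number. They were followed here in fully grown oocytes at the germinal vesicle stage, the stage before meiosis resumes. Members were chosen by symbol and by measured level: a gene was kept when its FPKM was at least 1 in 4 or more of 12 RNA-sequencing libraries. FPKM is the number of sequenced fragments scaled to transcript length and library depth. Zfp36 and Zfp352 were left out by the same rule. This gave 263 of the 331 Zfp symbols in a table of 24254 genes, of which 11687 met the same expression limit. Of the other 68, 4 were at 0 in every library and 8 reached 1 in 1 to 3 libraries.

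All 12 libraries came from C57BL/6 mice of 3 weeks, which had received 5 IU of the gonadotropin PMSG, which stimulates follicle growth, 46 h before collection. Every group carried a gene trap in Marf1, which encodes an oocyte protein with an RNA-cutting NYN domain. GT denotes gene trap oocytes without added MARF1, GTWT those that received mRNA of wild type MARF1 by injection, and GTD272 those that received mRNA of the D272-mutated protein. There were 4 libraries in each group, each from a pool of 80 oocytes. The injected oocytes were kept for 48 h in medium with milrinone, which holds them at the germinal vesicle stage. The labels do not give the culture or any control injection of the GT oocytes, so injection, culture and MARF1 protein cannot be told apart in a comparison with GT. Nothing in the labels assigns the libraries of a group to separate animals or cultures, so the spread behind the p-values is that of these libraries and may be technical. The labels name oocytes as the tissue, but one of their protocols speaks of lysing ovaries. In these data, 10 of 10 oocyte markers were expressed, no theca or blood marker reached the expression limit, and Hba-a1, Hbb-bs, Hbb-bt and Ptprc were listed at 0 throughout. The remaining blood marker, Alas2, stood at 0.258 to 1.33 FPKM. In GTWT against GT, 4 oocyte markers were called higher and 1 lower, where 6.14% and 10.5% of all genes tested were. GTD272 against GT gave 4 higher and 1 lower too, where 1.41% and 1.54% of all genes tested were. Between the injected groups 0 were called. The summed oocyte marker level was 7970 to 8162 FPKM in GT, 8203 to 8778 in GTD272 and 8243 to 8644 in GTWT. Of 10 granulosa markers 4 reached the limit, while Foxl2, Fshr, Amh and Amhr2 stayed under 1. The summed granulosa marker level was 140 to 149 FPKM in GT, 126 to 135 in GTD272 and 119 to 128 in GTWT, most of it from Nr5a2, which was at 125, 109 and 103 FPKM. The other 3 expressed granulosa markers were not called in any comparison: Cyp19a1 stood at 4.87, 5.04 and 6.67 FPKM in GT, GTD272 and GTWT, Inhba at 1.13, 1.37 and 1.26, and Kitl at 14.4, 12.9 and 12.7. The part of these markers in the results was not tested.

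Most Zfp genes encode proteins with a row of C2H2 zinc fingers, short loops held by a zinc ion that each read a few DNA bases. Many also carry a KRAB domain, which recruits the scaffold protein TRIM28 and with it the methyltransferase SETDB1, histone deacetylases and HP1 proteins, so that the bound DNA is silenced. KRAB zinc finger proteins are best known for silencing retroelements, and in oocytes and early embryos ZFP57 protects the methylation of imprinted genes. Genes of this family lie in clusters of near-copies, between which sequencing reads are hard to assign.

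The coding sequence of 261 members could be read from the GENCODE annotation. Of these, 254 held at least 1 finger pattern, 148 held 10 or more, and the highest number was 37. A KRAB profile was found in 146 members (55.9%) and not found in 115. Members with a KRAB profile had the lower median level, 7.04 FPKM against 17 FPKM, and their transcripts had a lower median GC content, 42.8% against 50%. The median member level of 11.2 FPKM was close to that of all genes tested, 11.6 FPKM. Another gene shared the deposited locus of 28 members, and those values cannot be separated from the neighbour with certainty. The lowest members kept were Zfp85, Zfp551 and Zfp947, whose library ranked 4 from the top stood at 1.06, 1.07 and 1.14 FPKM, and Zfp362, Zfp935 and Zfp931 fell just short with 0.995, 0.99 and 0.939. A level of 1 was reached in all 12 libraries by 235 members, while 28 were under 1 in at least 1 library. Among those 28, Zfp382 had an FPKM of at least 1 in 4 GTD272 libraries, 1 GT library and no GTWT library, and it was not called in any comparison.

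**Figure D1:**
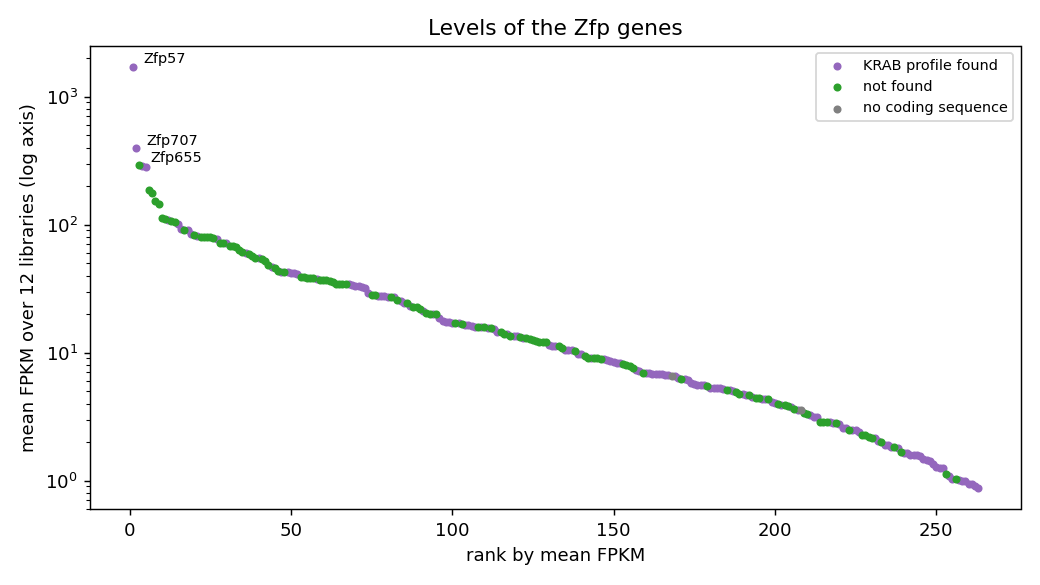
Mean FPKM over 12 libraries of the 263 Zfp genes on a log axis, in order of level, coloured by whether a KRAB profile was found in the coding sequence. Zfp57 stands apart at 1704 FPKM, and the other members run from 395 FPKM down to 0.873.

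Zfp57 was the highest member and hardly varied between groups. It is on chromosome 17 (mm10, 37001163 to 37010635) and encodes the KRAB factor that maintains imprints. Its FPKM was 1702, 1672, 1698 and 1678 in the 4 GT libraries, 1875, 1667, 1855 and 1507 in GTD272, and 1863, 1684, 1581 and 1668 in GTWT. The 3 groups overlapped, and the log2 difference of GTWT from GT was 0.01, with a 95% interval of -0.13 to 0.14. Zfp57 alone held 17.2% to 20.9% of the summed FPKM of all members in a library. Next in mean level over 12 libraries were Zfp707 (395 FPKM), Zfp655 (291), Zfp715 (286), Zfp212 (280), Zfp131 (188), Zfp664 (176), Zfp296 (152), Zfp956 (146) and Zfp957 (113). The library ranges of neighbours in this order overlapped from Zfp707 to Zfp212 and from Zfp131 to Zfp956. Within GT, the steadiest members were Zfp212, Zfp14 and Zfp57, with coefficients of variation of 0.706%, 0.739% and 0.864%. The most variable were Zfp54, Zfp382 and Zfp422, at 71.4%, 63.2% and 59.9%, all with GT means under 3 FPKM. The summed FPKM of the members was 9311 to 9632 in GT, 8784 to 9449 in GTD272 and 8490 to 8912 in GTWT, so that no GTWT library reached the lowest GT library.

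Marf1 itself followed the labels. Its mean FPKM was 1.6 ± 0.242 in GT, 9.12 ± 0.806 in GTD272 and 17.5 ± 5.08 in GTWT (SD, n = 4 each). The 2 injected groups thus differed in Marf1 level as well as in the mutation (log2 difference 0.84, SE 0.16, limma adjusted p = 0.0188), and these cannot be told apart. That difference missed the threshold without GTD272 replicate 2 or 4 or GTWT replicate 4, at adjusted p of 0.0505 to 0.0549.

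The first comparison asked which members differed between oocytes given wild type MARF1 and the gene trap oocytes. More members were lower than higher in GTWT: 43 fell (16.3%, against 10.5% of all genes tested) and 11 rose (4.18%, against 6.14%). A gene is called here when limma, fitted to log2(FPKM + 1) of all 11687 genes, gave an adjusted p under 0.05. This scale understates the change of low genes. The median log2 difference of the members was -0.10 and that of all genes tested was -0.01, and 161 members were below 0. All 4 GTWT libraries lay below all 4 GT libraries in 59 members (22.4%, against 12.6% of all genes tested) and above them in 15 (5.7%, against 9.32%). Fewer oocytes with a transcript and less of it in each oocyte cannot be told apart in pooled samples. The calls in the 28 members under 1 FPKM somewhere were 4 of the falls and 0 of the rises. Such genes could be kept through the groups where they were high.

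**Figure D2:**
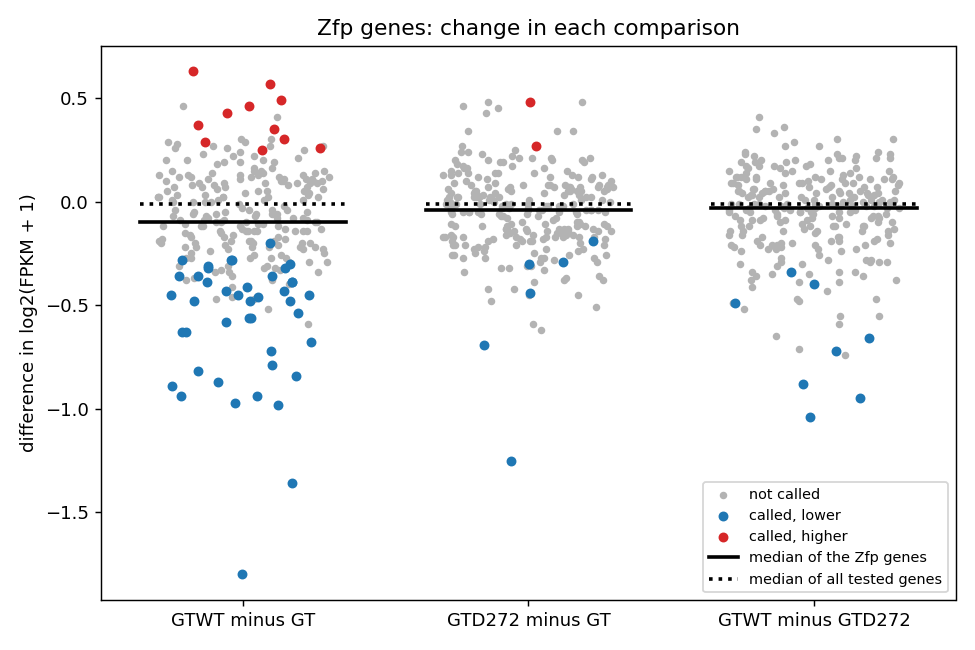
Difference in log2(FPKM + 1) of each of the 263 Zfp genes in the 3 comparisons, with called genes in colour and the medians of the Zfp genes and of all tested genes as lines. In GTWT minus GT, 43 genes are called lower and 11 higher, against 6 and 2 in GTD272 minus GT and 8 and 0 in GTWT minus GTD272.

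The calls and the median of the members moved with the removal of GC and length trends and with scaling. Of the called members 79.6% were lower, against 63% of all called genes, and after GC and length trends were removed from each library these shares were 69.4% (34 lower, 15 higher) and 51.8%. With quantile normalization they were 71.4% (35 lower, 14 higher) and 49.8%. The median of the members went from -0.099 to -0.026 when the GC and length trends were removed and to -0.061 with quantile normalization. That of all genes tested moved upward too, from -0.011 to 0.022 and to 0.025 in the same order. Members with more GC-rich transcripts stood at higher log2 differences, with Spearman's rho of 0.20 across 263 members and 0.21 across 11591 genes, as a description of points that share libraries. Leaving out GT replicate 1 reduced the 43 falls to 25, and leaving out GT replicate 2 reduced the 11 rises to 5. Of the falls 24 were called without any one of the 12 libraries and 22 under every setting of limma tried, and 4 rises were called under every setting.

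**Figure D3:**
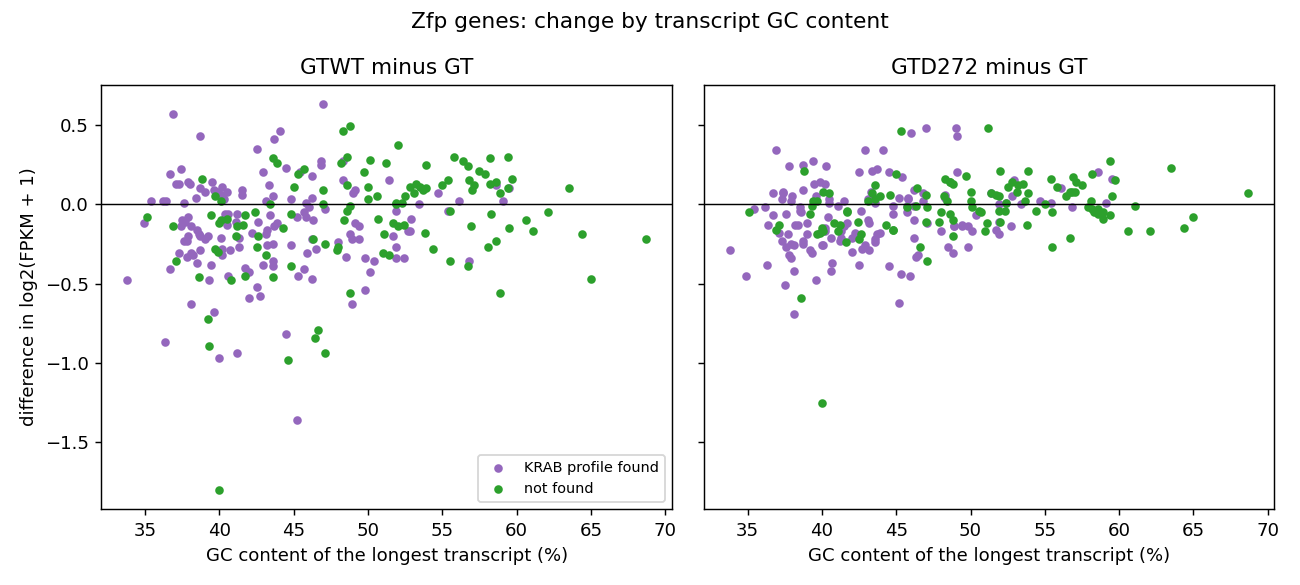
Difference in log2(FPKM + 1) of the Zfp genes plotted on the GC content of the longest transcript, for GTWT minus GT and GTD272 minus GT, with KRAB genes in purple. Low-GC transcripts reach further below 0 in both panels, and Spearman's rho is 0.20 and 0.30.

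The 12 largest falls were Zfp711, Zfp809, Zfp367, Zfp54, Zfp105, Zfp715, Zfp800, Zfp808, Zfp42, Zfp189, Zfp275 and Zfp644, and log2 differences ran from -1.80 to -0.72. Zfp711 led them. It lies on the X chromosome (112600526 to 112635070) and encodes a ZFX relative that binds CpG island promoters with the histone demethylase PHF8. Its FPKM was 14.3, 9.51, 8.85 and 8.75 in GT, 3.48, 4.32, 3.48 and 3.59 in GTD272, and 2.73, 1.45, 2.12 and 2.7 in GTWT. The 3 groups did not overlap, and GT was highest. In GTWT, the log2 difference of Zfp711 from GT was -1.80 (SE 0.17, limma adjusted p = 3.78e-05). In GTD272 it was -1.25 (SE 0.17, limma adjusted p = 0.00236), and both comparisons share the GT libraries. Between the injected groups it missed the threshold, at -0.55 (SE 0.17, adjusted p = 0.104). Its X-linked paralog Zfx, a transcription factor, fell from 48 ± 3.21 to 31.6 ± 6.72 FPKM in GTWT (SD, n = 4 each, log2 -0.61, adjusted p = 0.00508), with 39.7 ± 1.11 in GTD272. Phf8 stood at 25.3, 22.9 and 25.9 FPKM in GT, GTD272 and GTWT and was not called.

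Zfp809 encodes the KRAB factor that recruits TRIM28 to retroviral primer binding sites in mouse embryonic stem cells. Its FPKM was 12.7, 8.43, 5.22 and 7.39 in GT and 3.12, 3.08, 1.59 and 2.56 in GTWT, with 4.13 to 6.22 in GTD272. Every GTWT library was below every GT library, and the log2 difference was -1.36 (SE 0.22, limma adjusted p = 0.00142). This value is uncertain, since the deposited locus of Zfp809 holds 16 genes, and the authors' deposited table gives it a q-value of 0.212. Zfp809 was the only one of the 11 expressed KRAB factors with known targets, of 15 listed, that was called in this comparison (9.09%, against 10.5% of all genes tested lower). Zfp445, which guards imprints beside Zfp57, stood at 16.4 FPKM in GT and 17.9 in GTWT, and Zfp568, the repressor of placental Igf2 transcripts, at 17.9 and 17.5.

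Zfp54, Zfp808, Zfp42 and Zfp189 fell at levels near the expression limit. Zfp54, Zfp808 and Zfp189 reached 1 FPKM in no GTWT library and were kept through the other groups alone. Their falls in GTWT are therefore not independent of the choice of members. Zfp54 went from 4.58, 1.9, 1.65 and 0.886 FPKM in GT to 0.156, 0.603, 0.895 and 0.575 in GTWT, with 1 library of each group overlapping. Its log2 difference of -0.97 (SE 0.30, limma adjusted p = 0.0445) missed the threshold without any 1 of 8 libraries (GT 1, 2 or 3, GTD272 2 or 4, GTWT 1, 2 or 4), at 0.0541 to 0.12. Zfp808 fell by 0.87 and Zfp189 by 0.82, and both missed the threshold without GT replicate 1, with Zfp808 lost also without GT 3 and Zfp189 without GT 2 or GTWT 1 or 2 (adjusted p 0.056 to 0.0823). The authors' deposited table gives a q-value of 1 for Zfp54, Zfp808, Zfp42 and Zfp189. By contrast, Zfp105 (4.07 to 1.64 FPKM) and X-linked Zfp275 (10 to 5.35 FPKM) stayed called under every setting, with log2 differences of -0.94 and -0.79.

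**Figure D4:**
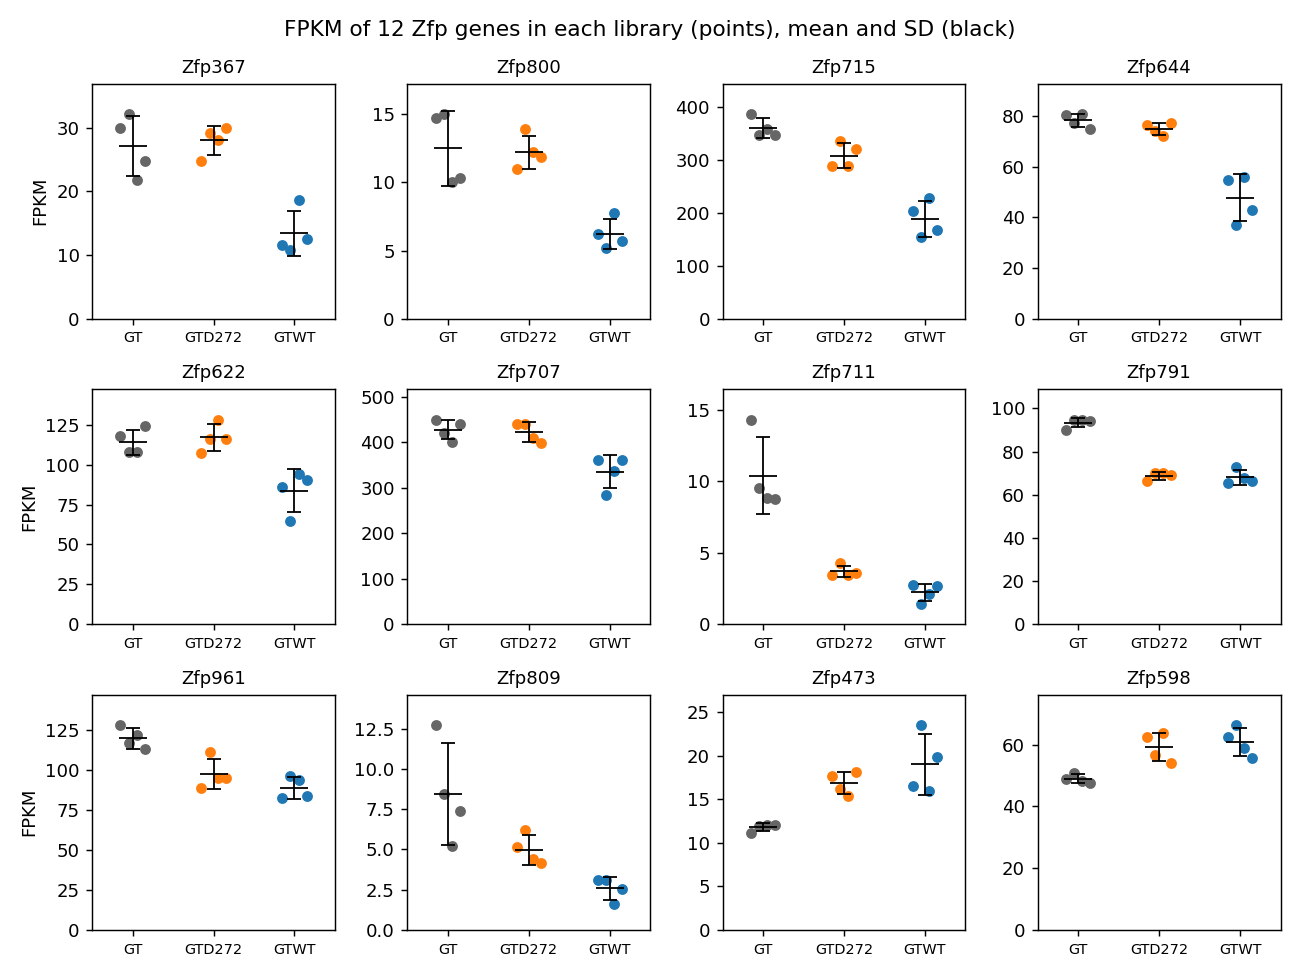
FPKM of 12 Zfp genes in each library, with 4 points per group and the mean and SD in black. Zfp367, Zfp800, Zfp715, Zfp644, Zfp622 and Zfp707 are low in GTWT, where none of the libraries overlaps those of the other groups, whereas Zfp711 and Zfp791 are low in both injected groups and Zfp473 and Zfp598 are high in both.

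Among 25 expressed factors of promoters and enhancers, of 29 listed, 8 fell (32%, against 10.5% of all genes tested) and 1 rose (4%, against 6.14%) in GTWT against GT. Beside Zfp711, Zfp42 and Zfp644 these were Zfp143, Zfp148, Zfp281, Zfp423 and Zfp503. The list was chosen with earlier results of these data known, so its share is a description and not a test. Zfp143, which activates promoters of small nuclear RNA genes, was at 49.8, 38, 47.3 and 40.6 FPKM in GT and 32.1, 33.6, 32.4 and 34.4 in GTWT, without overlap (log2 -0.39, limma adjusted p = 0.0102). Zfp503, a developmental corepressor, went from 8.07 ± 0.65 to 5.16 ± 0.657 FPKM (SD, n = 4 each, log2 -0.56, adjusted p = 0.00977). The calls of Zfp143 and Zfp503 held without any one library. Zfp281, a regulator of pluripotency, Zfp148, which binds GC-rich sites, and Zfp423, a determinant of fat cells, fell by 0.32, 0.30 and 0.39 on the log2 scale. Each of these 3 lost its call when single libraries were left out, 7 for Zfp281 (all but GTWT 2 of the GT and GTWT libraries), 5 for Zfp148 (GT 1 or 2, GTWT 1, 2 or 4) and 6 for Zfp423 (GT 1 or 3 or any GTWT library), with adjusted p up to 0.0984. Zfp407 was the member of this list that rose, from 12.2 to 14.9 FPKM (log2 0.26, adjusted p = 0.0256), and it was lost without any 1 of GT 1, 2 or 3 or GTWT 2, 3 or 4 (adjusted p 0.0521 to 0.069). The highest factor on the list, Zfp296, which is tied to pluripotency, was at 155 ± 5.43 FPKM in GT and 139 ± 4.44 in GTWT and was not called (adjusted p = 0.0764).

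Of 14 expressed members known for work on RNA, ribosomes, ubiquitin, SUMO or the spindle, of 16 listed, 2 fell (14.3%) and 1 rose (7.14%), shares near the 10.5% and 6.14% of all genes tested. Zfp622, an assembly factor of the large ribosomal subunit, fell by 0.46 (SE 0.10, limma adjusted p = 0.00804). Zfp451, a SUMO ligase, fell by 0.20, and its adjusted p of 0.0461 rose above the threshold without 10 of the 12 libraries, all but GTD272 1 and 4 (0.0556 to 0.118). Its call was also lost under 6 other settings of limma, with adjusted p up to 0.168 after GC and length trends were removed. The authors' deposited table gives Zfp451 a q-value of 0.112. Zfp598, the ubiquitin ligase that marks collided ribosomes, was at 48.9, 51, 48.4 and 47.7 FPKM in GT and 62.5, 66.3, 58.8 and 55.7 in GTWT. Its groups did not overlap, and it rose by 0.30 (SE 0.07, adjusted p = 0.00812).

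The 8 largest rises were Zfp473, Zfp946, Zfp608, Zfp704, Zfp944, Zfp523, Zfp952 and Zfp598, with log2 differences from 0.63 to 0.30. Zfp473, whose human counterpart is a histone mRNA processing factor, was at 11.1, 11.9, 12.1 and 12.1 FPKM in GT, 17.7, 16.2, 15.4 and 18.1 in GTD272 and 16.5, 23.5, 16 and 19.9 in GTWT. Both injected groups lay above GT, and the rise in GTWT was 0.63 (SE 0.11, limma adjusted p = 0.00198). Zfp704 rose from 3.15 to 4.73 FPKM and Zfp952 from 18.4 to 23.7 FPKM, and both stayed called under every setting. Zfp946, Zfp608, Zfp944 and Zfp523 rose by 0.57, 0.49, 0.43 and 0.37, and each lost its call without any 1 of at least 3 libraries, among them GT replicate 2 for all 4 (adjusted p 0.0501 to 0.12).

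**Figure D5:**
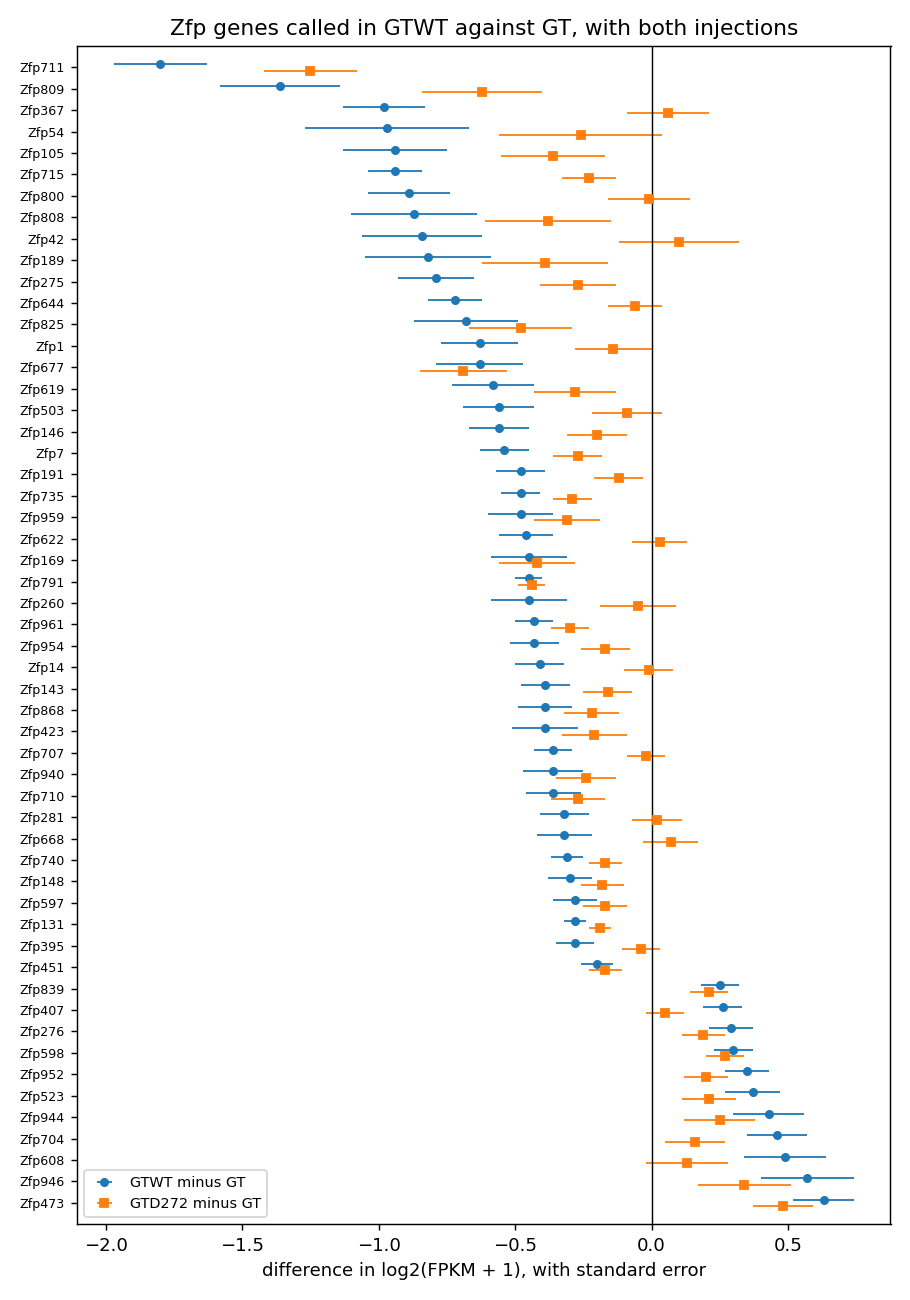
Difference in log2(FPKM + 1) with its standard error for the 54 Zfp genes called in GTWT minus GT (circles), with the value of GTD272 minus GT for the same genes (squares). Both sets of values share the GT libraries. Zfp711 and Zfp791 are low in both, whereas Zfp367, Zfp800, Zfp42 and Zfp644 are near 0 in GTD272.

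The second comparison asked which members differed between oocytes given mRNA of D272-mutated MARF1 and the gene trap oocytes. Few members passed: 6 fell (2.28%, against 1.54% of all genes tested) and 2 rose (0.76%, against 1.41%). The median log2 difference was -0.04. All 4 GTD272 libraries lay below all GT libraries in 26 members (9.89%, against 7.59% of all genes tested) and above them in 11 (4.18%, against 5.37%). The falls were Zfp711, Zfp677 (-0.69), Zfp791 (-0.44), Zfp961 (-0.30), Zfp735 (-0.29) and Zfp131 (-0.19), and the rises Zfp473 (0.48) and Zfp598 (0.27). Zfp791 had 90.1, 94.5, 94.7 and 94.3 FPKM in GT, 66.3, 69.9, 70.1 and 69 in GTD272, and 65.5, 73, 67.7 and 66.2 in GTWT. Both injected groups lay below every GT library and overlapped each other, with falls of 0.44 (limma adjusted p = 0.000677) and 0.45 (adjusted p = 8.88e-05) and a log2 difference between them of -0.02 (95% interval -0.12 to 0.09). Zfp711 and Zfp791 were the members called in this comparison under every setting of limma tried. Zfp961 (GT 120, GTD272 97.4 and GTWT 89 FPKM) and Zfp131, a BTB zinc finger gene (209, 183 and 172 FPKM), had no overlap between GTD272 and GT. The calls of Zfp677, Zfp961, Zfp735, Zfp131, Zfp473 and Zfp598 against GT were each lost without any 1 of at least 7 libraries, GT replicates 1, 2 and 3 and GTD272 replicates 1 and 3 in every case (adjusted p 0.05 to 0.131). Each was also lost under 3 to 6 other settings of limma. After GC and length trends were removed, the adjusted p was 0.256 for Zfp735 and 0.145 for Zfp131. In this comparison the count of falls was 2 after GC and length trends were removed and 13 in the authors' deposited table.

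The third comparison set both injected groups side by side. In GTWT against GTD272, 8 members fell (3.04%, against 1.84% of all genes tested) and 0 rose (0.625% of all genes tested rose). With limma, 57 members had an unadjusted p under 0.05 in either direction, and the authors' deposited table holds 4 rises at a q-value under 0.05. All 4 GTWT libraries lay below all GTD272 libraries in 34 members (12.9%, against 5.93% of all genes tested) and above them in 4 (1.52%, against 4.26%). The 8 falls were Zfp367, Zfp42, Zfp800, Zfp715, Zfp644, Zfp622, Zfp14 and Zfp707. The median log2 difference of all members was -0.025, and it turned to 0.006 with quantile normalization. That of all genes tested likewise turned, from -0.012 to 0.023. All 8 falls were also called lower in GTWT against GT, but both comparisons share the GTWT libraries.

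The bases before the start site are shown for 4 of these 8 genes, those of Zfp367 with its repeated CCAAT boxes and the 3 that hold AGGCCT, the core of the motif bound by ZFX and ZFP711. They are the 250 bases before the RefSeq start site in GRCm38.p6, all on the minus strand, at chr13:64153200-64153449 for Zfp367, chr7:43313301-43313550 for Zfp715, chr5:106696831-106697080 for Zfp644 and chr7:30051397-30051646 for Zfp14. The stretch of Zfp644 lies wholly inside the GENCODE position of that gene, which runs to 106697287. Capitals mark AGGCCT, which reads the same on both strands, and CCAAT or its complement ATTGG.
Zfp367: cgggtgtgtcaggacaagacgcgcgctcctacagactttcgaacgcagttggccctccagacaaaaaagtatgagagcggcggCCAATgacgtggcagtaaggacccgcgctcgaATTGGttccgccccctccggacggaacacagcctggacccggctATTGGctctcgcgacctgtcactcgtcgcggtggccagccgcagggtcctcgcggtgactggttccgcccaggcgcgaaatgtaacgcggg
Zfp715: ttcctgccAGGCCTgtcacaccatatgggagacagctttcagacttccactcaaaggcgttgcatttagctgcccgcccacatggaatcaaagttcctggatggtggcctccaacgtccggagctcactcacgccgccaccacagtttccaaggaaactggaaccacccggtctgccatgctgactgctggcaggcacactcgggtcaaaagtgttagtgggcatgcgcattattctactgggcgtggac
Zfp644: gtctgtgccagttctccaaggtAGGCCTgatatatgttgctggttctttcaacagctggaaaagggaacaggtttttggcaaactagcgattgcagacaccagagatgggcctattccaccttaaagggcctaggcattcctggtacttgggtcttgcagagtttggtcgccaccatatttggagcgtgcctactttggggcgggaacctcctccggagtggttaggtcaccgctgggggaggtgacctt
Zfp14: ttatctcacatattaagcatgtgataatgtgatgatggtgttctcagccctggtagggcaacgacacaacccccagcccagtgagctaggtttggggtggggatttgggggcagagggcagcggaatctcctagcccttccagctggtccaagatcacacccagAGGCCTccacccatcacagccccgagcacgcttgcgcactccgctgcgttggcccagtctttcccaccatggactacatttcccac
Of the 8 genes, 7 had a promoter in the table. The letters AGGCCT occurred in 3 of these 7 (42.9%), in 22 of 218 members with a promoter (10.1%), in 9.34% of the promoters of all genes tested and in 8.73% of 27025 promoters. Among the members that fell in GTWT against GT it was in 4 of 38 (10.5%), near the share of all members. CCAAT was in 2 of the 7, Zfp367 and Zfp42, in 20 of those 38 (52.6%), in 48.2% of the members, in 37.4% of genes tested and in 34.4% of all promoters. TATAAA was searched too, on both strands, and was in none of the 7 and none of the 38, in 5.05% of the members, in 6.48% of genes tested and in 13% of all promoters. None of these motifs overlaps another in the sequences shown. A match is a description of letters and not of binding.

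Zfp367 (chromosome 13, 64133018 to 64153202) showed the largest difference between the injected groups. It had 29.9, 32.1, 21.8 and 24.7 FPKM in GT, 24.8, 29.1, 28.1 and 30 in GTD272 and 11.6, 10.8, 18.7 and 12.5 in GTWT. Each GTWT library was below all 8 others, while GT and GTD272 overlapped. It fell by 1.04 (SE 0.15, limma adjusted p = 0.00338) in GTWT against GTD272, and the difference of GTD272 from GT was 0.06 (95% interval -0.27 to 0.38).

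Zfp715 (chromosome 7, 43296197 to 43313294) is a KRAB gene with 19 finger patterns and among the 4 highest members. Its FPKM was 386, 347, 359 and 347 in GT, 288, 335, 288 and 321 in GTD272 and 204, 154, 229 and 168 in GTWT. The groups formed 3 separate steps. It fell by 0.72 (SE 0.10, limma adjusted p = 0.00289) against GTD272 and by 0.94 against GT (adjusted p = 9.91e-05), while GTD272 differed from GT by -0.23 (95% interval -0.44 to -0.01, adjusted p = 0.248).

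Zfp644 (chromosome 5, 106616739 to 106697287), whose human counterpart is a partner of the histone methyltransferases G9a and GLP, had 80.4, 77.2, 80.7 and 75 FPKM in GT, 76.3, 74, 72 and 77.2 in GTD272 and 54.8, 37, 56.1 and 43 in GTWT. The first groups overlapped and GTWT lay below both, with a fall of 0.66 against GTD272 (SE 0.10, limma adjusted p = 0.00509). Zfp800 (chromosome 6, 28239927 to 28398005) had 10 to 15 FPKM in GT, 11 to 13.9 in GTD272 and 5.23 to 7.79 in GTWT, and fell by 0.88 (SE 0.15, adjusted p = 0.00736). Zfp367, Zfp644, Zfp715 and Zfp800 were called in this comparison under every setting of limma tried.

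The other 4 falls each lost their call under some settings and without some single libraries. Zfp622 was at 114 ± 7.91, 117 ± 8.61 and 83.7 ± 13.3 FPKM in GT, GTD272 and GTWT (SD, n = 4 each), and Zfp707, the highest KRAB gene after Zfp57, at 427 ± 20.9, 422 ± 21.7 and 335 ± 36.5. Their log2 differences from GTD272 were -0.49 and -0.34 (limma adjusted p = 0.0231 and 0.0246), and they missed the threshold without GTD272 2, 3 or 4 for Zfp622 and GTD272 1 or 2 for Zfp707 (adjusted p 0.0535 to 0.079). Zfp14, a KRAB gene, had 20.4, 20.4, 20.5 and 20.7 FPKM in GT, 21.8, 20.7, 17.9 and 21 in GTD272 and 17.3, 12.7, 15.3 and 15.8 in GTWT, without overlap (log2 -0.40, adjusted p = 0.0355). Zfp42, the pluripotency marker also called Rex1, had 4.02, 3.15, 1.45 and 2.59 FPKM in GT, 3.26, 3.15, 2.7 and 2.73 in GTD272 and 0.912, 1.1, 1.83 and 0.561 in GTWT (log2 -0.95, adjusted p = 0.0413). GTWT was below every GTD272 library in Zfp42 but overlapped GT. The calls of Zfp14 and Zfp42 were each lost without any 1 of 9 libraries, GT 2 and 4, GTD272 1, 2 and 4 and GTWT 2 and 4 among them for both, at adjusted p up to 0.102. With all libraries kept, other settings of limma also lost these calls, 3 for Zfp622, 4 for Zfp707, 4 for Zfp14 and 6 for Zfp42. The highest adjusted p of limma there was 0.108, 0.113, 0.105 and 0.141 in the same order. The fall of Zfp42 against GT (log2 -0.84, adjusted p = 0.0209) was lost without GT 1 or 2 or GTWT 4 (0.0577 to 0.0667).

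Calls were made both among KRAB genes and among other members. In GTWT against GT 21 of 146 members with a KRAB profile fell (14.4%) and 4 rose (2.74%), while 22 of 115 without it fell (19.1%) and 7 rose (6.09%), against 10.5% and 6.14% of all genes tested. The median log2 differences were -0.14 and -0.06. The difference between these kinds was not tested. Of 26 expressed corepressor partners of KRAB factors, of 27 listed, 2 fell and 2 rose in this comparison (7.69% each), near the 10.5% and 6.14% of all genes tested. Cbx3, which encodes an HP1 protein, went from 16.1 ± 2.86 to 8.36 ± 1.42 FPKM (log2 -0.86, limma adjusted p = 0.00253), and Dnmt1, the maintenance DNA methyltransferase, from 59.7 ± 4.29 to 86.7 ± 5.83 FPKM (log2 0.53, adjusted p = 0.000292), with 12.4 and 76.5 FPKM in GTD272 (SD, n = 4 each). Atrx, a chromatin remodeller, fell by 0.37 (adjusted p = 0.0359), and Dnmt3b, a DNA methyltransferase, rose by 0.48 (adjusted p = 0.0426). Both were lost without any 1 of GT 1, 2 or 3 or GTWT 1, 2 or 4, and Dnmt3b also without GT 4 or GTD272 3 (adjusted p 0.0501 to 0.117). Trim28 stood at 156, 171 and 154 FPKM and Setdb1 at 51.1, 48.6 and 51.3 FPKM in GT, GTD272 and GTWT, and neither was called.

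Calls were found in several genomic clusters and ran in both directions within 1 of them. With members joined when at most 500 kb apart, 95 of the 263 fell into 11 clusters of at least 5 members. The largest, on chromosome 17 (21008903 to 22456689), held 15 members, all with a KRAB profile. In GTWT against GT its Zfp677 and Zfp54 fell while Zfp944 and Zfp946 rose, and these values are uncertain, since reads could be split between near-copies. The call of Zfp677 in this comparison was lost without GT 1 or 3 or GTWT 1 or 4 (adjusted p 0.05 to 0.0591). A cluster on chromosome 7 (29768552 to 30169750) held 14 members, of which 4 fell and 0 rose, where 10.5% and 6.14% of all genes tested did. Those 4, Zfp14, Zfp146, Zfp260 and Zfp940, were named after their values were seen, and the calls of Zfp260 and Zfp940 were lost without any 1 of at least 9 libraries (adjusted p 0.05 to 0.126). A second chromosome 7 cluster (24081924 to 25227507) held 12 members and no call in any of the 3 comparisons.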

How the data were processed

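RNA was sequenced from 12 oocyte pools in 3 groups of 4, grouped by the sample titles. Per the submitters' processing notes, the alignment used mm10 and TopHat2 2.0.13, and the authors computed FPKM with Cufflinks 2.2.1. Cuffdiff gave the deposited p-values and q-values, per the labels. The gene annotation and use of strand are not given in the sources used here, so antisense and overlapping genes cannot be told apart. Smart-seq2 is named in the labels beside an RNeasy Micro extraction. Column names stood 1 column left of the values in the table and were realigned, and 1 emptied line was dropped. The deposited log2 fold changes were not used, because their columns hold cells that are not numbers. Directions of the authors' calls were taken from mean FPKM.

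FPKM carries no counts, so no counting interval is given. Steps between low values gave the relative depth: in 94.6% of 3553 pairs of values under 0.3 FPKM, the ratio was that of small whole numbers (at most 5, tolerance 0.02 in log2). Relative to the deepest library, depth was 55.4% to 100% in GT, 64.6% to 82.3% in GTD272 and 66.1% to 84.2% in GTWT. Correlations between libraries of a group were 0.966 to 0.981.

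limma 3.58.1 (R 4.3.3) with a mean-variance trend was fitted to log2(FPKM + 1), with a pseudocount of 1, of 11687 genes and all 12 libraries in 1 model. Genes below an FPKM of 1 in more than 8 libraries were left out. P-values were adjusted by Benjamini-Hochberg over all genes tested, and genes under 0.05 were called. The procedure was tested on simulated data. Alternatives were a pseudocount of 0.1, no filter, quantile or median-ratio scaling, removal of GC and length trends, a fit of only the groups compared, no mean-variance trend, the replicate number as a block, the authors' calls, and leaving out each library. Finger patterns were counted in GENCODE M21 coding sequences. KRAB domains were found with a profile built from the Zfp genes themselves, including those under the expression limit (pyhmmer 0.12.3, E-value limit 0.001). Gene positions are those of GENCODE on GRCm38. Promoters are from RefSeq.

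Named are the 10 highest members, up to 12 falls and 8 rises per comparison, called members of the role lists, 3 genes either side of the expression limit, members expressed in 1 group and in no library of another, the 3 steadiest and 3 most variable in GT, and Marf1, Zfx, Phf8 and called corepressor partners. The members and lists were chosen with earlier results of these data known.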

Additional observations from a re-analysis of the deposited data

Results flagged for a closer look

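In 9 of 162 groups of 4 libraries, over 54 genes, 1 library stood far from the other 3 by Dixon's criterion at the 95% level, which chance reaches in about 1 of 20 groups. GT replicate 1 was such a library for 3 genes. It held 5.64 FPKM of Zfp105 where the other GT libraries held 3.42 to 3.78, 14.3 FPKM of Zfp711 against 8.75 to 9.51, and 90.1 FPKM of Zfp791 against 94.3 to 94.7. Without GT replicate 1 the calls of all 3 genes in GTWT against GT remained. GT replicate 2 was low for Zfp959, at 6.23 FPKM against 8.51 to 8.94. Among the GTD272 libraries, replicate 2 was high for Zfp711 (4.32 FPKM against 3.48 to 3.59) and replicate 1 was low for Zfp523 (6.03 FPKM against 6.36 to 6.42). Among the GTWT libraries, replicate 3 was high for Zfp148 (16.1 FPKM against 14.6 in the other 3) and low for Zfp276 (37.4 FPKM against 43.1 to 43.6), and replicate 4 was high for Zfp523 (8.7 FPKM against 6.56 to 6.79). The cause was not tested.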

How the results depend on the processing

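None of the 81 calls of members, corepressor partners, Zfx, Marf1 and Ppp2cb changed sign under other settings. Of 1701 values there, 1333 kept their side of the threshold and 368 lost the call. These comparisons were picked because they were called, so the kept sign is a description and not a test. Counts that moved by over 1.5 times are given next, as Zfp genes lower and higher. Without a filter on low values, GTWT against GT gave 6 higher, GTD272 against GT 3 and 0, and GTWT against GTD272 4 lower; the corepressor partners gave 1 lower and 1 higher, 0 higher, and 1 lower, and all genes 796 lower, 78 and 67, and 73 lower. Fits of only the groups compared gave 7 higher, 3 and 1, and 4 lower, and for all genes in GTWT against GTD272 97 and 27. Without the mean-variance trend GTD272 against GT gave 2 and 0 (partners 0 higher, all genes 77 and 87) and GTWT against GTD272 4 lower (all genes 126 and 47). After removal of GC and length trends GTD272 against GT gave 2 and 1, GTWT against GTD272 1 higher (all genes 126 higher), and 1 partner was lower in GTWT against GT, where the median of the Zfp genes was -0.026. Quantile normalization gave medians of -0.061 in GTWT against GT and 0.006 in GTWT against GTD272, 144 higher genes in the latter and 2 higher partners in GTD272 against GT. The medians of all genes tested under quantile normalization were 0.025 in GTWT against GT and 0.023 in GTWT against GTD272. A pseudocount of 0.1 gave 1 higher in GTD272 against GT. The authors' deposited calls gave 13 and 4 in GTD272 against GT (partners 2 lower, all genes 419 and 319) and 14 and 4 in GTWT against GTD272 (partners 1 lower, all genes 434 and 176). The cause was not tested.

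With the replicate block, GTD272 against GT gave 2 and 0 (all genes 95 and 99), GTWT against GTD272 38 higher among all genes, and the partners 1 lower and 1 higher in GTWT against GT, where the Zfp genes gave 39 and 9. Deviations of samples with the same number correlated by -0.222 to 0.211, so the numbers were not taken to pair the samples.

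Leaving out 1 library gave 25 to 43 Zfp genes lower and 5 to 11 higher in GTWT against GT, 2 to 6 and 0 to 2 in GTD272 against GT, and 4 to 11 and 0 to 1 in GTWT against GTD272. The partners gave 1 to 2 lower and 1 to 2 higher in GTWT against GT and 0 to 1 higher in GTD272 against GT. All genes gave 845 to 1216 and 483 to 726, 50 to 207 and 60 to 168, and 85 to 246 and 29 to 70 in the same order. The median of the Zfp genes was -0.114 to -0.078, -0.049 to -0.029 and -0.039 to -0.018. Depth is known only as a ratio between libraries, so changes of members near 1 FPKM rest on the spread between libraries alone.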

Other observations

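The libraries of GTWT differed among themselves, a pattern noticed after the values were seen. GTWT replicate 2, which had the most Marf1 (24.1 FPKM, against 13.5, 13.6 and 19 in the other GTWT libraries), was the lowest GTWT library for 7 of the 8 members that fell in GTWT against GTD272, the exception being Zfp42. It was also the lowest for 23 of the 43 members that fell against GT (53.5%), for 68 of all 263 members (25.9%) and for 27.5% of all genes tested. GTWT replicate 3, with 13.6 FPKM of Marf1, was the lowest for 3 of those 43 (6.98%) and for 17.5% of all members. The counts did not follow the Marf1 level in order: replicate 1, with the least Marf1 (13.5 FPKM), was the lowest for 9 of the 43 (20.9%) and replicate 4, with 19 FPKM, for 8 (18.6%). Zfx (22.1 FPKM) and Ppp2cb (53.3 FPKM), a phosphatase gene with a log2 difference of -0.60 between GTWT and GT, were likewise lowest in replicate 2. With 4 libraries no relation across them was tested.

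Members were spread unevenly over the chromosomes. The chromosomes with the most members were 7, with 70 members, of which 10 fell and 1 rose in GTWT against GT, and 17, with 31, of which 3 fell and 5 rose. Of all genes tested, 10.5% fell and 6.14% rose in that comparison.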
